A study of Mus musculus with 2 samples.

Results

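Genes of 49 patterning transcription factors whose textbook roles lie mostly outside the cerebral cortex were examined for open chromatin in mouse frontal cortex. They were taken by symbol from the GENCODE M21 annotation of assembly mm10, and all 49 were found among its 21938 protein-coding genes. They belong to 12 families: Pax (8 genes), Irx (6), Six-family (5), Gata (5), Tbx (8), Nkx (4), Lhx (3), and Gbx, En, Otx, Barhl and Lmx1 (2 each). The data are DNase-seq of tissue from male B6CASTF1/J mice, an F1 hybrid, at 14 days of age. DNase I cuts DNA that is not wrapped in nucleosomes, so a peak of cuts marks an open promoter or regulatory region, and a short protected gap inside it, a footprint, is read as a stretch that a bound protein may cover. There was 1 group of 2 libraries, replicate 1 and replicate 2, each labelled as coming from 3 males. The labels give the same donor number but do not say whether the libraries share animals. The gap between the libraries may therefore be partly technical, and with 1 group no test between conditions was possible.

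These factors divide the embryo into regions. Pax, En, Gbx, Otx and Lmx1 genes set up the midbrain, the hindbrain and the boundary between them, Irx, Nkx6, Barhl and Lhx genes specify neurons of the hindbrain, spinal cord and diencephalon, Six3, Six6 and Pax6 act in the anterior forebrain and the eye, and the Gata4 to Gata6, Tbx and Nkx2-5 genes act in heart, limb and other organs. Their promoters are typically rich in GC and CpG, and outside their own territories such genes are known as classic targets of repression by Polycomb complexes. Pax6 and Otx1 are exceptions to the name of the group, since both also act in the developing cortex. Lhx5, a gene of Cajal-Retzius cells in the developing cortex among other places, is a further exception.

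Of the 49 genes, 10 had a peak within 1000 bp of an annotated start site in both libraries (20.4%), against 59.7% of all protein-coding genes. The 10 were Pax5, Pax6, Irx6, Six4, Six5, Gata3, Tbx3, Tbx18, Otx1 and Lhx5. A further 6 had a peak in 1 library alone, against 4.17% of all genes: Six3, Six6 and Gata2 in replicate 1, and Six2, Nkx6-1 and Nkx6-2 in replicate 2. The remaining 33 genes (67.3%) had none in either library, against 36.2% of all genes. In tissue of mixed cells, a promoter open in few cells and one weakly open in many cannot be told apart, and a peak that was not called may still exist below the calling limit.

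**Figure D1:**
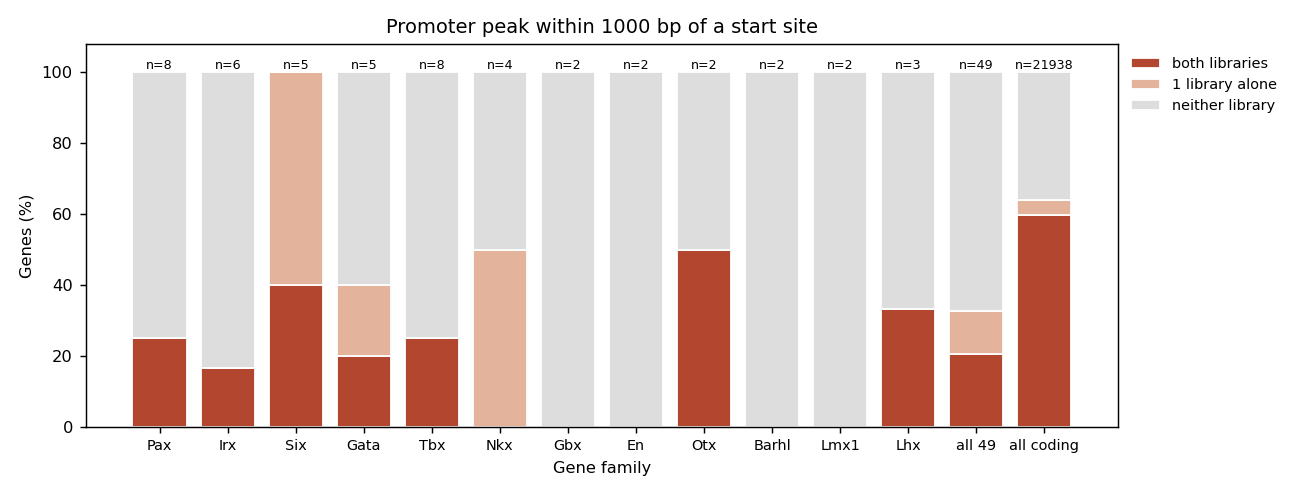
Share of genes (%) in each of the 12 families, in all 49 genes and in all protein-coding genes, open at a promoter in both libraries, in 1 library alone or in neither. Every Six-family gene had a peak in at least 1 library, while no Gbx, En, Barhl or Lmx1 gene had one in either.

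The share was also low among genes with GC-rich promoters. The promoters of the 49 genes had a median GC content of 57.6%, against 48.8% for all genes, and a median CpG ratio (observed over expected) of 0.626 against 0.362. In all, 36 of the 49 fell in the 2 highest deciles of promoter GC content. Of these 36, 6 had a promoter peak in both libraries (16.7%), against 74.1% of all 4388 genes in the same deciles, and 24 had none (66.7%), against 19.4%. The 49 genes had a mean of 3.49 start sites, against 4.63 for all genes, and a median of 3 in both sets, so that fewer windows were searched per gene on average; the effect of this on the shares was not tested.

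**Figure D2:**
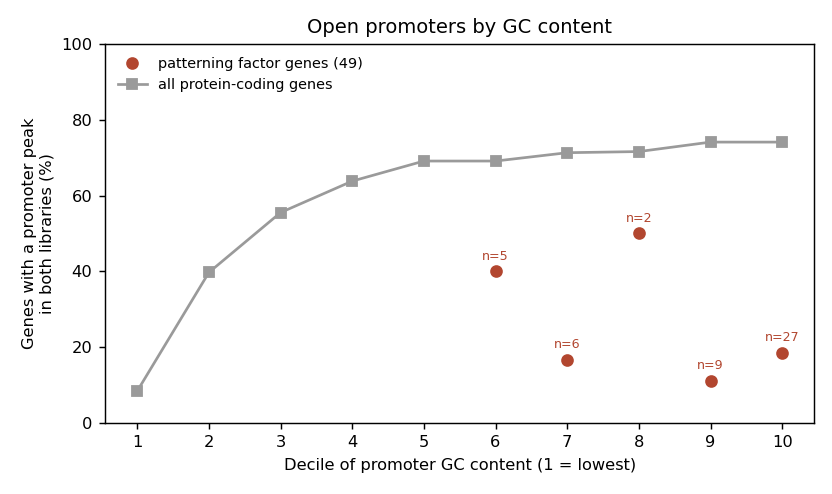
Percentage of genes open at a promoter in both libraries, by decile of promoter GC content, for the 49 patterning factor genes (n beside each point; no member lay below decile 6) and for all protein-coding genes. In each decile from 6 to 10 the share for the 49 genes lies below that for all genes, by the least in decile 8, which holds 2 of them.

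Each gene was assigned to 1 region of action, which is not the chief one for all. Pax8 was counted under midbrain and isthmus, and Gata2 and Gata3 under the rest of the neural tube. The counts were 2 of 5 for the eye and anterior forebrain (Pax6 and Otx1) and 1 of 8 for midbrain and isthmus (Pax5). They were 3 of 17 for the rest of the neural tube (Irx6, Gata3 and Lhx5) and 4 of 19 for genes assigned outside it (Six4, Six5, Tbx3 and Tbx18). All 4 groups lay below the 59.7% of all genes, but the eye and anterior forebrain group, the smallest, holds too few genes to rank. In that group 2 further genes, Six3 and Six6, had a peak in replicate 1 alone, and 1 of 5 (Otx2) had none in either library. Genes without a peak in either library were 7 of 8 for midbrain and isthmus, 11 of 17 for the rest of the neural tube and 14 of 19 outside it. Among all genes this share was 36.2%. The lower count of the eye and anterior forebrain group rests on the peaks of Six3 and Six6. These stood at percentiles 3.61 and 0.157 of open promoters in replicate 1. With the shorter peak lists neither gene had a peak in either library, so no conclusion is drawn for this group.

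Where peaks were present they were mostly low. The height of a peak is the authors' signal value, scaled per library. Each library had peaks at 13 of the genes, and their median height was 0.80 in replicate 1 and 0.734 in replicate 2, against 2.95 and 2.80 for all genes with a promoter peak. Pax6 in replicate 2 stood highest at percentile 55.6 of all open promoters of its library, and Six6 in replicate 1 stood lowest at percentile 0.157.

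**Figure D3:**
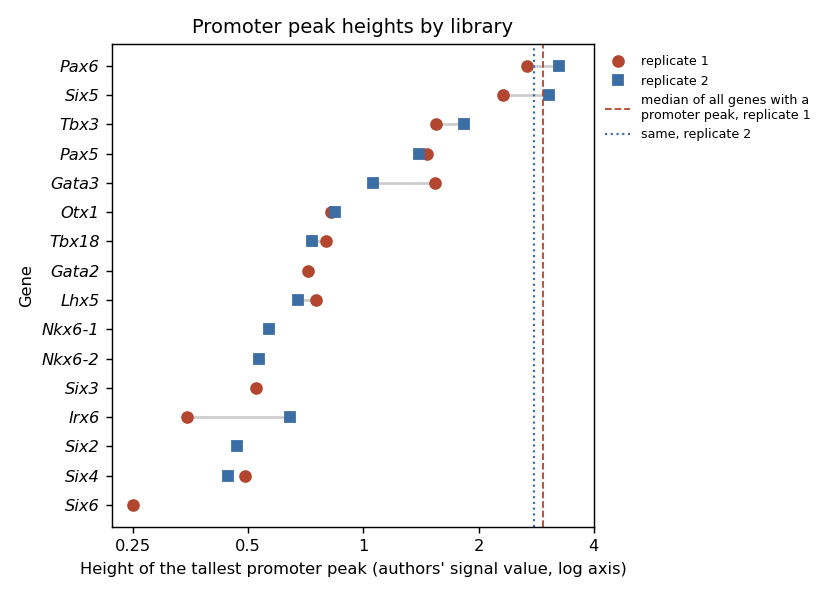
Height of the tallest promoter peak (authors' signal value, log axis) of the 16 genes with a peak in at least 1 library, replicate 1 as circles and replicate 2 as squares, with a line where both lie at the same site. The vertical lines give the medians of all genes with a promoter peak, 2.95 in replicate 1 and 2.80 in replicate 2, and only Pax6 and Six5 in replicate 2 lie beyond them.

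Among the Pax genes, which encode paired-domain factors, Pax6 had the tallest promoter peak of the whole group. Pax6 controls eye formation and the progenitors of cortical neurons. Its peak was 2.67 high in replicate 1 and 3.24 in replicate 2 (mean 2.96 ± 0.397, SD, n = 2). It lay inside the gene (chromosome 2, 105668900 to 105697364, plus strand), at 105675281 to 105675540 in replicate 1, with its centre at -22 bp from an internal start site, and it reaches into the annotated 5′ UTR of transcripts that begin there. Replicate 1 also had a second peak next to it, at 105674988 to 105675160 and 0.764 high. The window held 5 footprints in replicate 1 and 4 in replicate 2. Sequences are given from the mm10 reference genome, 5′ to 3′ on the strand of the gene. A run of bases inside footprints of both libraries, in the UTR, is given here because it belongs to the tallest promoter peak of the group:
Pax6, chr2:105675375-105675391, plus strand: GCTGGCGCGAGGCCCCG
Pax6 had no shared distal region over its span and 10 kb on both sides.

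Pax5, a factor of the midbrain and hindbrain boundary and of B cells, was the other open Pax gene. Its promoter peak was 1.47 high in replicate 1 and 1.40 in replicate 2 (mean 1.44 ± 0.0479, SD, n = 2), near percentile 25 of open promoters in both. It too lay at an internal start site, in an intron of the longest form (gene on chromosome 4, 44524757 to 44710487, minus strand), with its centre at -615 bp in replicate 1 and -545 bp in replicate 2 from that site (negative is upstream). The joined region is shown with bases inside footprints of both libraries in capitals, because it is a promoter region with such footprints outside any UTR:
Pax5, chr4:44704421-44704700, minus strand: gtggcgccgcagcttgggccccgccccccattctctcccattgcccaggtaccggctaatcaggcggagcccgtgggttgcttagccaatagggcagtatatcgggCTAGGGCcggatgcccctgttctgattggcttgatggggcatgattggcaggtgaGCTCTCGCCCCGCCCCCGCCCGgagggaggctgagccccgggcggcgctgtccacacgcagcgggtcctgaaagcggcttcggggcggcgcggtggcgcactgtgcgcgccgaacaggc
The longer capital run holds 2 matches to the GC box, GGGCGG on the opposite strand, the letters bound by Sp1. Pax1, Pax2, Pax3, Pax7, Pax8 and Pax9 had no promoter peak. For Pax9, a factor of teeth and pharyngeal pouches, replicate 2 listed 18 bases with a false discovery rate of the cut rate below 0.05, the lowest 0.0399. For the other 5 neither library listed a base in the window. Pax2, of the optic stalk, midbrain and kidney, had a weak shared region 1134 bp upstream of a start site, just beyond the window, with heights of 0.442 and 0.459.

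All 5 Six-family genes had a promoter peak somewhere, but only Six5 had a tall one. Six5, a homeobox gene that lies directly downstream of the kinase gene Dmpk, had heights of 2.32 in replicate 1 and 3.05 in replicate 2 (mean 2.68 ± 0.520, SD, n = 2), at percentiles 41.0 and 53.3 of open promoters. Its region reached from the edge of the annotated Dmpk 3′ UTR into the sequence between Dmpk and the start of Six5 (chromosome 7, 19094594 to 19098549, plus strand), with its centre at -553 bp in replicate 1 and -543 bp in replicate 2. Replicate 1 called a peak of 80 bp there and replicate 2 one of 460 bp, but the listed bases covered nearly the same length, 649 and 679 of the 2001 bases of the window. The 300 bases of it shown are intergenic, again with bases inside footprints of both libraries in capitals, 77 of 300, the most of any promoter shown:
Six5, chr7:19093915-19094214, plus strand: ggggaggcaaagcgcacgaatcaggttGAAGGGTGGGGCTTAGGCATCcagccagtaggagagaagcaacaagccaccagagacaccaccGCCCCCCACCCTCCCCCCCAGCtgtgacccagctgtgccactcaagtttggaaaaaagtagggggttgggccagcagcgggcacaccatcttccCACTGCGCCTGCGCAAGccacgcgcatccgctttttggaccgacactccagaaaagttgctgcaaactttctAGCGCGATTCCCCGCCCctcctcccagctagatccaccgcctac
One capital run ends in a GC box on the opposite strand, and 1 touches an E-box, CAGCTG.

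The other Six-family peaks were near the calling limit. Six4, a factor of muscle and kidney precursors, had heights of 0.490 in replicate 1, at the start site, and 0.442 in replicate 2, at 801 bp downstream of it, while the peak of replicate 2 at the start site was 0.400 high. Six3, which keeps the anterior forebrain from posterior fates, had a peak of 0.525 in replicate 1, centred at -73 bp from a start site that lies beside that of the antisense gene Gm28528. Six6, an eye and pituitary factor, had one of 0.251 in replicate 1, and Six2, a factor of kidney progenitors, one of 0.467 in replicate 2. The protein-coding gene 4930447C04Rik has a start site within 1000 bp of the Six6 peak, so that peak cannot be assigned to either gene. For Six3, Six6 and Six2 the other library listed no base in the window at all, and the lowest false discovery rates in the library with the peak were 0.00514, 0.0242 and 0.0361.

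Among the T-box genes, 2 of 8 were open in both libraries. Tbx3, a repressor in limb, heart and hypothalamus, had heights of 1.55 in replicate 1 and 1.83 in replicate 2 (mean 1.69 ± 0.200, SD, n = 2). The region covered the first start site of the gene (chromosome 5, 119670669 to 119684724, plus strand), with 4 footprints in each library. The antisense gene Tbx3os1 starts within 1000 bp, so the peak cannot be assigned to either. A run of bases inside footprints of both libraries in its 5′ UTR reads:
Tbx3, chr5:119670753-119670769, plus strand: AGCGCGCGGCGCCCTGG
Tbx18, a gene of pericytes, epicardium and ureter, had heights of 0.80 in replicate 1 and 0.734 in replicate 2 (mean 0.767 ± 0.0468, SD, n = 2) upstream of its start, with 1 footprint in replicate 1 and none in replicate 2. Tbx1, Tbx2, Tbx4, Tbx5, Tbx15 and Tbx20 had none, and at Tbx4, a hindlimb gene, replicate 2 listed 6 bases.

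Gata3, a zinc finger gene of T cells, inner ear and brain stem neurons, was the only 1 of 5 Gata genes open in both libraries. The heights were 1.54 in replicate 1 and 1.06 in replicate 2 (mean 1.30 ± 0.340, SD, n = 2). Both peaks were in an intron (gene on chromosome 2, 9857078 to 9890034, minus strand) with centres at -1071 and -1108 bp from an internal start site, so that only their edges reached the window. With a window of 500 bp, Gata3 was no longer open in either library, and Pax5 and Six5 were each open in 1 alone, which left 7 genes open in both. The Gata3 peaks held 5 footprints in replicate 1 and 4 in replicate 2. The region is shown because a capital stretch ends on the first base of an AP-1 site, TGACTCA. The other bases of that site are not in capitals:
Gata3, chr2:9879541-9879840, minus strand: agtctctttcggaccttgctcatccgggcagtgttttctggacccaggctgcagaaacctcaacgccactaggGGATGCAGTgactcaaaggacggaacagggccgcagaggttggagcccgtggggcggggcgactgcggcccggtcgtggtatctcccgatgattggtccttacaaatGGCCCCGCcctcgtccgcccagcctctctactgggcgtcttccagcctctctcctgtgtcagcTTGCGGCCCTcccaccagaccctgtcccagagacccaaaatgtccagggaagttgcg
Gata2, which acts in blood progenitors and in GABAergic neurons of the midbrain, had a peak of 0.717 in replicate 1 alone, and replicate 2 listed no base there. Gata4, Gata5 and Gata6, genes of heart and endoderm, had neither peaks nor listed bases.

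Otx1, expressed in deep-layer cortical neurons as well as in midbrain and sense organs, differed in shape from the others. Its tallest promoter peak reached 0.824 in replicate 1 and 0.842 in replicate 2 (mean 0.833 ± 0.0130, SD, n = 2), at percentiles 10.3 and 11.8 of open promoters. Yet the window held 4 peaks in replicate 1 and 8 in replicate 2, at percentiles 93.9 and 99.4 of all genes. Listed bases covered 41.6% of the 3283 bases of the window in replicate 1 and 60.1% in replicate 2, at percentiles 93.3 and 96.5 of all genes. Over the span of the gene (chromosome 11, 21994764 to 22002897, minus strand) and 10 kb on both sides there were 7 peaks in replicate 1 and 19 in replicate 2, and 3 shared distal regions between 0.322 and 0.826 high. More separate peaks were thus called in replicate 2 than in replicate 1.

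**Figure D4:**
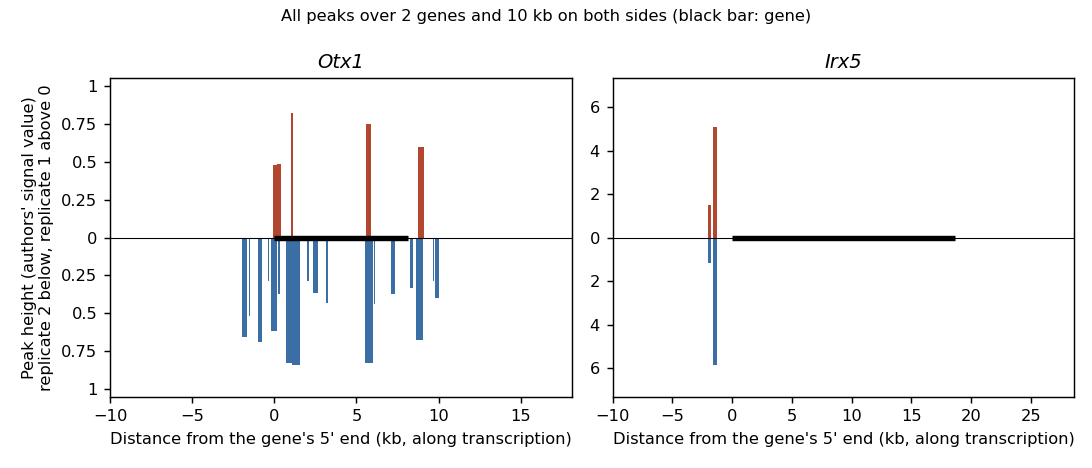
Every called peak over Otx1 (left) and Irx5 (right) and 10 kb on both sides, as distance from the 5′ end of the gene along transcription (kb) against peak height (authors' signal value, replicate 1 upwards and replicate 2 downwards; the 2 panels have different height scales). At Otx1 low peaks, none above 0.842, spread from upstream to past the end of the gene, while at Irx5 both libraries have 2 peaks, 1 of them above 5, upstream of it and none inside.

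Set against all genes, this form was rare. There were 611 genes whose window was listed at least as far as that of Otx1 in both libraries, with median heights of 4.96 and 4.93, and 905 genes open in both libraries with a tallest peak no higher, whose windows were listed over a median of 7.80% and 10%. Otx1 and 7 other genes met both conditions: Mapk4, Nexmif, Prps2, Prr16, Slitrk4, Tll1 and Gm9925. This comparison was chosen after the values of Otx1 were seen. Otx2, its relative of forebrain, midbrain and choroid plexus, had no peak and no listed base at any of its 10 start sites.

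Of the LIM homeobox genes, Lhx5, of hypothalamus, spinal cord and Cajal-Retzius cells, had a low peak in both libraries, 0.752 and 0.676 (mean 0.714 ± 0.0543, SD, n = 2), over its 5′ UTR and an exon of the antisense gene Gm27199. Lhx1 and Lhx9 had none, and neither did Lmx1a and Lmx1b, regulators of midbrain dopamine neurons, or Barhl1 and Barhl2. Of the 6 Irx genes, which form 2 clusters of 3, only Irx6 had a promoter peak, 0.346 in replicate 1 and 0.642 in replicate 2 (mean 0.494 ± 0.209, SD, n = 2). The cluster of Irx1, Irx2 and Irx4 on chromosome 13 was the emptiest: the nearest shared region lay 235125 bp from Irx1, 136624 bp from Irx2 and 67904 bp from Irx4. Nkx6-1 and Nkx6-2, ventral neural tube genes, had peaks of 0.567 and 0.534 in replicate 2 alone, and replicate 1 listed no base at either. Nkx2-3 and Nkx2-5, Gbx1 and Gbx2, and En1 and En2 had no peak, and 4 listed bases at En2 in replicate 1, with a lowest false discovery rate of 0.0487, were the only sign of cuts there.

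In both libraries 10 of the 49 genes had listed bases in the promoter window (20.4%), against 60.5% of all genes, and these were the genes with a peak in both. Of the 33 genes without a peak, 30 had no listed base in either library, the exceptions being Pax9, Tbx4 and En2. Among all protein-coding genes without a peak this held for 7694 of 7933. Listed bases were thus rare at genes without a peak in general, and their absence adds little to the lack of a peak. Footprints followed: 7 genes had at least 1 in the window in both libraries (14.3%), against 57.2% of all genes. These were Pax5, Pax6, Six4, Six5, Gata3, Tbx3 and Otx1, while, of the other genes open in both libraries, Irx6 and Lhx5 had footprints in replicate 2 alone and Tbx18 in replicate 1 alone.

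Away from promoters the share of genes with open regions was only somewhat below that of all genes. A shared distal region is one where peaks of both libraries overlap and which lies more than 1000 bp from every protein-coding start site. Of the 49 genes, 19 had at least 1 over their span and 10 kb on both sides (38.8%), against 46.0% of all genes, and the median was 0 regions per 10 kb in both sets. In the 2 highest GC deciles the gap was wider, with 14 of 36 (38.9%) against 57.5%. With the flanks widened to 50 kb the shares were 67.3% and 74.4%. With the shorter of the 2 peak lists of each library they were 28.6% and 30.2%. Away from the start sites of all genes, noncoding ones included, they were 34.7% and 44.2%. With replicate 2 alone they were 51.0% and 54.3%, and with replicate 1 alone 46.9% and 54.0%. Among genes without a promoter peak in either library, 13 of 33 patterning factor genes had such a region (39.4%), against 29.6% of all such genes. Within the 2 highest GC deciles the order was the other way round, with 10 of 24 (41.7%) against 52.4%. There the nearest shared region of any kind lay at a median of 26122 bp from a start site of the 24 genes, against 9574 bp for all such genes.

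The 19 genes held 34 distal regions, 9 upstream of the gene, 17 inside it (13 in introns) and 8 downstream. Their median height was 0.884 in replicate 1 and 0.855 in replicate 2, against 0.920 and 0.851 for all 34563 shared distal regions. Within 1000 bp of the start site of a noncoding gene lay 4 of the 34. Of the 34, 25 held footprints in both libraries (73.5%), against 73.9% of all. In height and footprints the distal regions thus lay near the values of all distal regions, whereas the 11 shared promoter regions, at medians of 0.824 and 0.842, lay below all 19060, at 1.76 and 1.74.

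**Figure D5:**
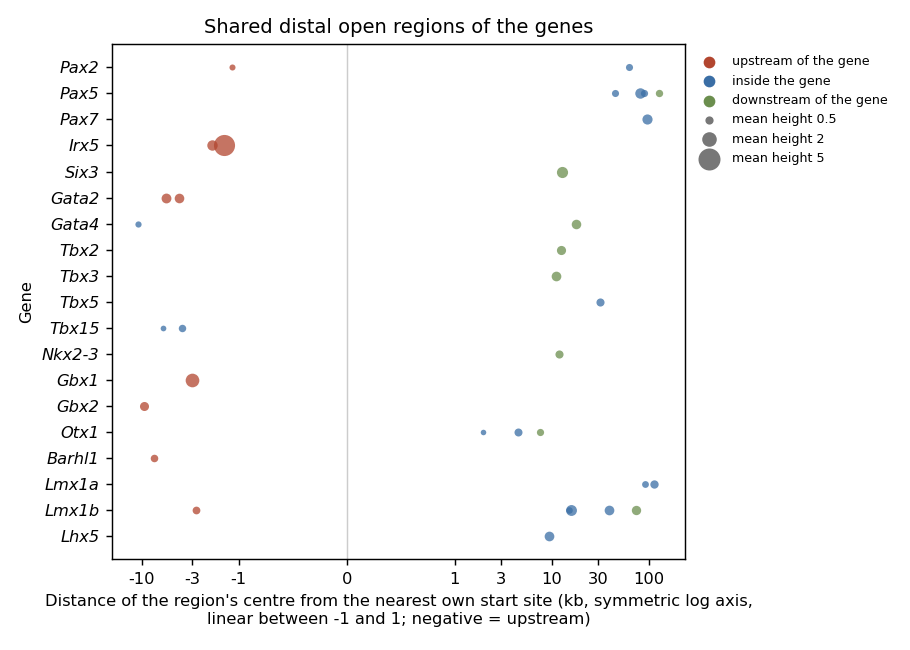
Position of the 34 shared distal regions of 19 genes, as distance of the region's centre from the nearest start site of the gene (kb, symmetric log axis), with the area of a point proportional to the mean height of both libraries and its colour giving the side of the gene. The region upstream of Irx5 is the tallest, and Lmx1b has the most with 5.

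The tallest distal region lay upstream of Irx5, with heights of 5.08 in replicate 1 and 5.86 in replicate 2, at percentiles 95.3 and 96.4 of all peaks. It covers the annotated start of the noncoding gene Crnde, which is transcribed away from Irx5, and its edge lay 1285 bp from the nearest Irx5 start site. A second region of 1.48 and 1.19 lay next to it. Irx5 itself had no promoter peak and no listed base within 1000 bp of its start sites. Gbx1, a factor of the spinal cord, likewise had no promoter peak, but its upstream region was 1.99 high in replicate 1 and 2.59 in replicate 2. Lmx1b had 5 regions, the tallest in an intron with 1.33 and 1.59. Pax5 had 4, the tallest in an intron with 1.12 and 1.57. Otx1 had 3, and Pax2, Gata2, Gata4, Tbx15 and Lmx1a had 2 each beside the 2 of Irx5. Lmx1a had 1.06 and 0.642 at the taller one and footprints in replicate 1 alone.

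Single regions were found at the other genes. Six3 had one downstream (1.28 and 1.78), Pax7 one in a UTR exon (1.24 and 1.30), and Lhx5 one in its 3′ UTR (1.11 and 1.2). Tbx2 had one downstream (0.979 and 1.08), as had Tbx3 (1.07 and 1.23, beside the noncoding gene Tbx3os2) and Nkx2-3 (0.884 and 0.734). Gbx2 (0.931 and 1.08) and Barhl1 (0.717 and 0.684) had one upstream, and Tbx5 (0.728 and 0.892) one in an intron. Gata2 had both of its regions upstream, at 1.49 and 0.884 and at 0.884 and 1.39, the order of the 2 regions differing between libraries. Both lay in the noncoding gene Gm38708, the second within 1000 bp of its start site. Gata4 had its taller one downstream (1.30 and 0.942).

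The sequences of 5 distal regions and of the footprint in the Lhx5 3′ UTR are shown on the strand of the gene, as examples that include the tallest 2 of all 34. Each is the tallest distal region of its gene and lies above the median of all peaks in both libraries, which also held for regions at Lmx1b, Gata2, Pax7, Tbx2, Tbx3 and Gbx2 that are not shown. Capitals mark bases inside footprints of both libraries.
Irx5, chr8:92356061-92356340, plus strand: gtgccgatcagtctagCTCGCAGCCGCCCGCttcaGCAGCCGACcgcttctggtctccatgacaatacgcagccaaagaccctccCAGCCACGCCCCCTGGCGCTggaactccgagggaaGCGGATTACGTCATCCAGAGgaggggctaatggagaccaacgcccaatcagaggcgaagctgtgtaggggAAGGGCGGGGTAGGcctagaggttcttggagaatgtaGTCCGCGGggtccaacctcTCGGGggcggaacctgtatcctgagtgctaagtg
Gbx1, chr5:24530101-24530340, minus strand: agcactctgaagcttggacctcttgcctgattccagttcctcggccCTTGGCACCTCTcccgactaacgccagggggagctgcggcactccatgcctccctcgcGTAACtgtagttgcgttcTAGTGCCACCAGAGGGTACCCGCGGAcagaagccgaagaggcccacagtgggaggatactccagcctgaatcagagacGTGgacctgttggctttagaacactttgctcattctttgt
Six3, chr17:85633721-85633940, plus strand: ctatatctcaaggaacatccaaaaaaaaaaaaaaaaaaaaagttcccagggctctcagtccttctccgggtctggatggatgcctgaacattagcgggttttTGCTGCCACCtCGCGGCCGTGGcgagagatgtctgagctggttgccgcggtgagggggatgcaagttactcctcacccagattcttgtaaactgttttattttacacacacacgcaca
Pax5, chr4:44564641-44564860, minus strand: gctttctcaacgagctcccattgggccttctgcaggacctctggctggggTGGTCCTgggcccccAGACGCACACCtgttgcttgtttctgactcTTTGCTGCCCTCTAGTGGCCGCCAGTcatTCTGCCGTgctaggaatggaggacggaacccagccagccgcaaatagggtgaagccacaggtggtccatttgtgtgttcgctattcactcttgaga
Gata4, chr14:63195861-63196080, minus strand: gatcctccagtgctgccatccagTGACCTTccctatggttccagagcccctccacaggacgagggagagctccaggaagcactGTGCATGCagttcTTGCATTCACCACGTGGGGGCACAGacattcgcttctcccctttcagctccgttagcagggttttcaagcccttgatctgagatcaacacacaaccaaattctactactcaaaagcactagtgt
Lhx5, chr5:120440905-120440928, plus strand: AGTTGGCGCCCCCTGGTGGCTCAA
At Gbx1, Pax5 and Lhx5 the long capital run holds the core of the CTCF motif, searched on both strands after the sequences had been seen (CCA, then AG after 2 bases of any kind, then GG after 2 more). Over all 34 distal regions, 10 held this core (29.4%), against 20.5% of all distal regions, and in 5 of them (14.7%) it touched footprints of both libraries, against 10.9%. The other 2 of these 5 lay at Tbx2 and Tbx3. A shorter part of the motif, AGGGGGC, was in 5 regions (14.7%), against 9.31%, among them the tall one upstream of Irx5.

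Of 5 motifs that the families themselves bind, also searched on both strands, 4 were no more frequent than in all distal regions. The homeodomain core TAATTA was in 1 of 34 distal regions (2.94%), at Lmx1b, against 4.05% of all. The GATA core AGATAA was in 2 (5.88%), against 7.44%. The T-box letters AGGTGTGA and the MEF3 site TCAGGTTTC, bound by Six-family proteins, were in none, against 1.11% and 0.315%. The Otx core GGATTA was in 6 (17.6%), against 5.18%, and in 1 of them, upstream of Irx5, it touched footprints of both libraries. The GC box GGGCGG was in 9 (26.5%), against 12.2%, in regions whose median GC content was 56.3%, against 51.7%. The E-box was in 6 (17.6%), against 25.7%, the AP-1 site in 3 (8.82%), against 9.20%, and the NFI palindrome in none, against 0.145%. None of the 5 family motifs was in any of the 11 promoter regions. Among all promoter regions each was rare too, from 0.289% for the MEF3 site to 4.46% for the Otx core. With 11 regions, absence therefore cannot be told from the share of all promoter regions. Of the 11, 8 held a GC box (72.7%), against 60.7% of all promoter regions.

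Genes of cortical neurons and partner proteins were open more often. Of 22 regulators of cortical neurons, 19 were open at a promoter in both libraries (86.4%), with medians of 1.91 and 1.64 among those with a peak. Tle4 (25 and 22.2) and Pou3f3 (9.24 and 9.68) were the tallest, and Fezf2 and Nr2f1 had none. Of 28 cofactors that bind Six-family, Gata, LIM or other homeodomain proteins, 24 were open in both (85.7%), led by the corepressor gene Tle4 and its relative Tle1 (13.1 and 11.7), and Eya2, Eya4 and Tle2 had none. All 29 genes of Polycomb complexes were open in both, with Cbx8 (12.1 and 13.0) and Jarid2 (12 and 11.2) tallest by the mean of their percentiles in the 2 libraries, although Phf19 was taller than Jarid2 in replicate 2. Of 20 genes of patterning signals, 10 were open in both (50%), with the Hedgehog receptor gene Ptch1 (4.02 and 3.62) and Fgf18 (2.95 and 3.01) tallest, while Chrd, Fgf8, Fgf17 and Gdf7 were among the 8 with none. Of relatives of the 49 genes from the same or neighbouring families, 8 of 27 were open in both (29.6%). Mga, a broadly expressed T-box gene (5.48 and 5.15), and the cortical gene Lhx2 (2.30 and 2.56) led them, and Barx1, Crx, Eomes and Gata1 were among the 15 without a peak.

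Markers of the tissue matched the label. Of 10 genes of cortical tissue, 9 were open in both libraries, and Slc17a7 had one in replicate 2 alone. The count was 5 of 8 for vascular and meningeal cells: Foxc1, Foxc2, Col1a1, Rgs5 and Flt1. Of the others on that list, Cldn5 and Slc6a13 had a peak in replicate 2 alone, and Pdgfrb had none in either library. The counts were 2 of 6 for thalamus and midbrain (Tcf7l2 and Slc17a6), and 0 of 4 for choroid plexus, where Ttr had a peak in replicate 1 alone. Replicate 1 held 75753 peaks and 156390 footprints, and replicate 2 held 77035 peaks and 202779 footprints, so that replicate 2 had more footprints. Whether cells other than cortical ones contributed to peaks such as that of Tbx18 was not tested. The number of reads behind the peaks is unknown. The gap between the libraries is the only spread available, and whether it comes from animals or from technique cannot be told.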

How the data were processed

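DNase-seq of 2 frontal cortex libraries was deposited as peak lists, footprints and cut rate tracks, per library, with mm10 coordinates according to descriptions deposited beside them. The aligner and callers are not given in the sources used here. Peak heights are the authors' deposited signal values, scaled per library on a scale not stated. The deposited footprints carry the constant 0.01 as a p-value or q-value, read as the threshold of the caller. The deposited cut rate tracks give a q-value, the false discovery rate, for bases below 0.05. How mapping reads of a hybrid to 1 strain's genome affected heights was not tested.

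The longer of the 2 peak lists of each library was used. A promoter was 1000 bp on both sides of any start site of the gene in GENCODE M21. Peaks overlapping by at least 1 bp were joined into 53623 shared regions, of which 34563 were distal. GC content was taken over the promoter windows from the genome of the same build. Python 3.11.15, numpy 2.4.6, pandas 2.3.3 and matplotlib 3.10.9 were used, and the calls were tested on simulated data. With 1 group there was no test. Gene values are per library or mean ± SD (n = 2).

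The members and lists were chosen with earlier results of these data known. All members are accounted for, and those with a promoter peak or the most distal regions have values per library. Of each other list the 2 genes with the tallest promoter peak and up to 4 without a peak, in alphabetical order, are named. The cofactor list held 29 symbols, of which 28 were in the annotation. The alternatives changed the window, the start sites, the peak list, the height, the flanks, the overlap and the library.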

Additional observations from a re-analysis of the deposited data

How the results depend on the processing

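Of 47 alternative values, 31 stayed close to the reported one and 16 moved. The limit for a count was wide. For genes open at a promoter in both libraries, 7 with a window of 500 bp and 13 with 2000 bp counted as close to 10. A median density counted as close only where it stayed at 0. The 10 genes open at a promoter in both libraries became 6 with the shorter peak lists (Gata3, Otx1, Pax5, Pax6, Six5 and Tbx3) and 5 with peaks above the median height (the same genes without Otx1), where all genes stood at 53.0% and 53.6%. The 16 with a peak in either library became 7 and 6 (14.3% and 12.2%), against 57.7% and 56.5% of all genes. With 1 library left out the count of genes with a promoter peak was 13 in either case (26.5%). Among all genes the share was 62.4% with replicate 2 alone and 61.1% with replicate 1 alone. The median promoter height, 1.05 as the mean of both libraries, was 0.767 with a window of 500 bp, 0.833 with 2000 bp, 1.58 with the shorter lists and 1.69 with peaks above the median, and between 0.734 and 0.80 with 1 library left out. Each of these medians is over a different set of genes. Listed bases below 0.001 were in both libraries at 6 genes (12.2%), against 54.0% of all genes. The 19 genes with a distal region became 12 with peaks above the median, 33 with 50 kb flanks and 10 with none. These were 24.5%, 67.3% and 20.4% of the 49 genes, against 31.7%, 74.4% and 28.4% of all genes. The median density of 0 became 0.0962 with 50 kb flanks, and lay between 0 and 0.0859 with 1 library left out. Under every alternative run the share with an open promoter was below that of all genes. Heights cannot be compared between the libraries beyond their separate scales, and a peak missing in 1 library shows only that it was not called at an unknown depth.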
